A study of Homo sapiens with 12 samples.

Results

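RFX7, its relative RFX5 and 8 genes known as RFX7 targets in p53 signalling were taken by gene name from the deposited RNA-seq tables of RPE-1 and HCT116 cells. All 10 were present, among 25914 genes, and all were listed under the same identifier in both tables. RPE-1 is a noncancerous line from human retinal pigment epithelium that was immortalized with hTERT, and HCT116 is a colon cancer line. Both were labelled wild-type and received either 10 µM Nutlin-3a or the solvent DMSO for 24 h, with 3 libraries per line and treatment and 12 in all. Nutlin-3a keeps the ubiquitin ligase MDM2 from p53 and so lets p53 accumulate.

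RFX proteins share a winged-helix DNA-binding domain and recognize the X-box, a promoter element built from a pair of inverted recognition sites. RFX5 works in a complex with RFXAP and RFXANK that recruits CIITA to the promoters of MHC class II genes. RFX7 is activated downstream of p53 and switches on genes that restrain growth and survival signalling, which links p53 to genes that p53 itself does not bind.

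The measurement used here is the base mean, the average over libraries of counts divided by size factors. It was identical in both tables for 25914 of 25914 genes, so it belongs to neither cell line nor to either treatment. Which libraries entered the average is not given in the sources used here, and values per library, their spread and the reads per library were not analysed here. The change of each gene with Nutlin-3a was held only in columns of the completed comparison of treatments, and these were not used. The values below therefore describe abundance over the averaged libraries, with no replicate error and no test, and small differences between genes cannot be told from noise. Because longer genes collect more reads, levels of different genes were compared as base mean per kilobase of annotated exon. The exceptions were checks without division by length, given for RFX7 and at the end.

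The recognition sites at the promoters are shown first, because the targets were selected as genes known to be regulated by RFX7. No binding was measured here. The motifs GTTGCCA and GTTGCTA were searched on both strands of the RefSeq promoter windows, which run from 250 bases before to 50 bases after an annotated start (build GRCh38.p14). Of the 10 members, 2 held such a site, TSPYL1 and IP6K2, in 2 of the members' 22 windows. Among all 27305 genes with a window, 8.21% held at least 1 such site, and among all 35116 windows 6.75% did. Both members carried GTTGCTA, which was found in 3.49% of all genes, whereas GTTGCCA, found in 4.98%, was in none of the members' windows. In the sequences below, written on the strand of the gene, capitals mark the site (for IP6K2 as its reverse complement).
TSPYL1, chr6:116280053-116280081, minus strand: gtaaaattactGTTGCTAtgggtaaattc
IP6K2, chr3:48717312-48717340, minus strand: tcctggcacccTAGCAACagcgcctttca

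Both sites lay upstream of the MANE Select start, the start of the transcript chosen jointly by RefSeq and Ensembl. The first base of the TSPYL1 site was at −140 and that of the IP6K2 site at −108, counted from the start base as 0. TSPYL1 had a further GTTGCTA on the opposite strand in exon 1, with its first base at 93 and outside the promoter window. In windows that reached 1000 bases to either side of the MANE Select start, the same 2 members held a site, beside 27.3% of 19061 genes. These matches are letters in a window and were not tested as binding sites.

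The shorter core GTTGC was present in RefSeq promoter windows of 8 of the 10 members, all but PIK3IP1 and PDCD4. It was also present in 38.4% of all genes, and in 12 of the members' 22 windows against 33.6% of all 35116. Overlapping windows of PIK3R3 and of ABAT counted the same core more than once. A member with several annotated starts, and therefore several windows, had more chances to hold the core. PIK3R3 had 6 windows and ABAT 4, whereas PNRC1, TSPYL1, TSPYL2, IP6K2 and PDCD4 had 1 each. Within 1000 bases to either side of the MANE Select start, 8 of the 10 members held the core, beside 92.3% of 19061 genes. That window was chosen after seeing the data, and in it PIK3IP1 held the core while PDCD4 and ABAT did not. In RFX5 and PNRC1 the core lay at or just upstream of the MANE Select start, with its first base at −20 and 0, and in TSPYL2 it lay downstream, at 24. At RFX7 itself the core was in the window of an alternative start at −1203. The short stretches below, with the core in capitals on either strand, show that the bases around it differed between the genes.
RFX5, chr1:151347257-151347283, minus strand: aggaaaataaaGCAACgcacgagccgg
PNRC1, chr6:89080740-89080766, plus strand: tgtggctatttGTTGCtgcgccgccac
TSPYL2, chrX:53082380-53082406, plus strand: gaggagagctgGTTGCgtgagtctcct
RFX7, chr15:56245160-56245186, minus strand: tcaaaggccagGCAACccaagccaatc

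ABAT held a pair of cores that faced each other across 4 bases, the arrangement of a full X-box. The pair stood 47 bases before an annotated start that lies 38220 bases downstream of the MANE Select start, and in the overlapping window of a neighbouring start. This arrangement was searched for only after the windows had been read, and at no gap other than the 4 bases in ABAT. It occurred in 57 of 27305 genes (0.209%), with ABAT the 1 member among them. Capitals mark both cores.
ABAT, chr16:8712784-8712809, plus strand: ccattgGTTGCctcgGCAACggcgta

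The transcription factors stood at different levels. RFX7 (ENSG00000181827), on chromosome 15 from 56087280 to 56245082 of GRCh38, had a base mean of 1978. RFX5 (ENSG00000143390), on chromosome 1 from 151340640 to 151347326, had a base mean of 2466. With 11504 bases of exon, RFX7 had the greatest exon length of the members, and RFX5 had 4555 bases. Per kilobase, RFX7 stood at 172.0 and RFX5 at 541.4, so that RFX7 had 0.318 times the level of RFX5. RFX7 was the lowest of the 10 members on this scale. Without division by length PIK3IP1 was lowest, and RFX7 stood at the 85.3rd percentile of all listed genes, next to the 70th per kilobase.

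Levels per kilobase of the other RFX genes spanned a wide range. RFX1, a broadly expressed family member, stood at 182.7, and RFX7 had 0.942 times that level. RFX2 had 35.8 and RFX3 41.4, both genes known for their part in ciliated cells, and RFX8 had 2.46. RFX4 and RFX6 were not listed, while the smallest base mean in the tables was 2.91. The partners of RFX5 differed, with RFXANK at 362.3 and RFXAP at 46.3, and RFX5 stood at 11.7 times the level of RFXAP. CIITA, the activator that the RFX5 complex recruits, had 0.296 and a base mean of 6.675. Genes with levels per kilobase nearest to RFX7 were GTPBP1, CIR1 and HPF1, a statement on level only.

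The highest levels among the target genes belonged to PNRC1 and TSPYL1. PNRC1 (ENSG00000146278), a nuclear receptor coregulator that also acts in ribosomal RNA processing and is known as a tumour suppressor, had a base mean of 3384 and 1131 per kilobase. It stood at the 95.06th percentile of all listed genes. It stood at 6.58 times the level of RFX7 and at 1.83 times that of its paralogue PNRC2. TSPYL1 (ENSG00000189241), a nucleosome assembly protein family member with a transcript of 1 exon, had a base mean of 7416 and 815.9 per kilobase. Its relative TSPYL2 (ENSG00000184205), which is X-linked, restrains cell growth and belongs to the same protein family, had a base mean of 912.1 and 184.3 per kilobase. TSPYL1 thus stood at 4.43 times the level of TSPYL2 and at 2.30 times that of TSPYL4, or 3.56 times with the longest transcript of each gene.

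Among the genes that act on phosphoinositide 3-kinase, the 2 members had similar levels. PIK3IP1 (ENSG00000100100), a membrane protein that inhibits the kinase's catalytic subunit, had a base mean of 876.5 and 230.4 per kilobase. PIK3R3 (ENSG00000117461), which encodes a regulatory subunit of the kinase, had a base mean of 1897 and 256.4 per kilobase. With the union of exons PIK3R3 stood at 1.90 times the level of PIK3R1, the major regulatory subunit gene, but at 1.07 times with the length of the longest transcript. The exons of PIK3R1 cover 16323 bases in union and 6975 in its longest transcript. PIK3R2 had 1.51 per kilobase, with a base mean of 7.80, and why so few reads were counted for it was not tested.

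The targets PDCD4, IP6K2 and ABAT had intermediate levels. PDCD4 (ENSG00000150593), an inhibitor of the translation initiation helicase eIF4A, had a base mean of 2027 and 445.9 per kilobase. IP6K2 (ENSG00000068745), an inositol hexakisphosphate kinase that sensitizes cells to apoptosis, had a base mean of 2715 and 482.8 per kilobase. Its paralogue IP6K1 stood at 455.2 and the third gene of that family, IP6K3, at 4.71. IP6K2 has 28 annotated transcripts over 5624 bases of exon, and the longest of them has 2490 bases. Its level was therefore 1090 per kilobase of the longest transcript, 2.21 times that of IP6K1. ABAT (ENSG00000183044), the enzyme that breaks down the neurotransmitter GABA, had a base mean of 2850 and 293.5 per kilobase.

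**Figure D1:**
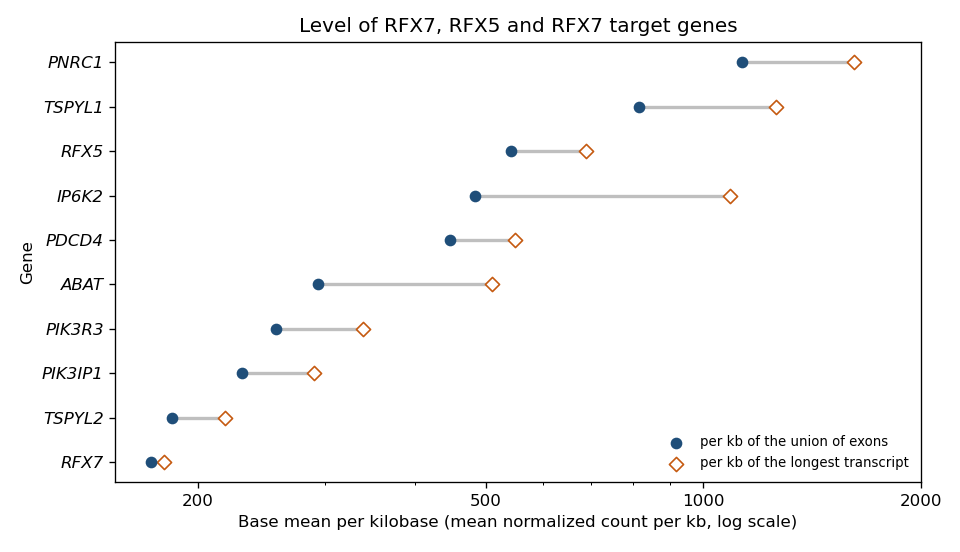
Base mean per kilobase (x axis, log scale) of the 10 members (y axis), from the union of annotated exons (circles) and from the longest annotated transcript (diamonds), joined by a line. PNRC1 and TSPYL1 are highest and RFX7 is lowest on both scales, and the widest gap between scales is that of IP6K2.

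The order from highest to lowest per kilobase of exon was PNRC1, TSPYL1, RFX5, IP6K2, PDCD4, ABAT, PIK3R3, PIK3IP1, TSPYL2 and RFX7. With the longest transcript, IP6K2 and RFX5 changed places and the other 8 kept theirs. Without spread over libraries, no neighbours in this order can be said to differ.

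Against all genes with an annotated length, the members were abundant. Their median level was 369.7 per kilobase, next to 51.3 for all 25836 listed genes matched to the annotation. All 10 lay above that overall median, which 50% of genes exceed by definition, and also above the median of 120.3 for the 15740 protein-coding genes. RFX7 stood at the 70th percentile of all listed genes and TSPYL2 at the 71.3rd. TSPYL1 stood at the 92.85th and RFX5 at the 88.8th. Among protein-coding genes alone, RFX7 stood at the 58.8th percentile and PNRC1 at the 94.0th.

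**Figure D2:**
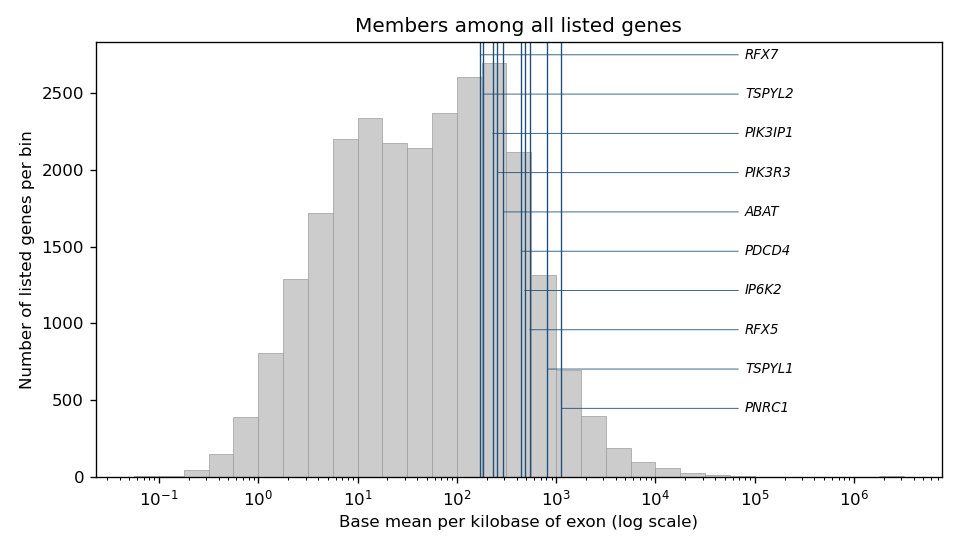
Number of listed genes (y axis) by base mean per kilobase of exon (x axis, log scale, 4 bins per power of 10), with a vertical line for each member. The lines lie between 172.0 and 1131, to the right of the overall median of 51.3.

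Levels of 5 other genes described as RFX7 targets ran from 150.1 to 2392 per kilobase. TOB1, an antiproliferative protein, stood at 2392, DDIT4, an inhibitor of mTORC1, at 2316, and the AP-1 subunit JUNB at 2287. MXD4, an antagonist of MYC, had 511.2 and SESN3, a sestrin that restrains mTORC1, had 150.1. Of these 5, TOB1, DDIT4 and JUNB stood above every member. The p53 targets MDM2 and CDKN1A had 5433 and 21511 per kilobase.

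The study asked how promoters that face each other on opposite strands behave, and PIK3IP1 with its antisense gene PIK3IP1-DT was among its examples. Annotated starts on the opposite strand within 2500 bases of the MANE Select start were present at 7 of the 10 members, against 39.2% of 15478 listed protein-coding genes. Such a start lay downstream of the member's own start, so that transcription would converge, at RFX5, PDCD4 and TSPYL1 by the annotation, 3 of 10 members against 12.7% of genes. It lay upstream, so that transcription would diverge, at 5 of 10 members against 32.5%, PIK3IP1 among them. TSPYL1 is in both counts, with opposite-strand starts on either side of its own. None was annotated within that distance at TSPYL2, IP6K2 or ABAT. These are annotated starts, and no start was measured here. The arrangement was counted from the MANE Select start, and another annotated start of a member can change it, as at PIK3IP1 and RFX7.

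At PIK3IP1, on the minus strand of chromosome 22 from 31281594 to 31292534, the nearest annotated start of PIK3IP1-DT (ENSG00000228839) lay 11 bases upstream of the MANE Select start. The annotated genes overlapped, since another start of PIK3IP1 lies at −46, beyond that of PIK3IP1-DT. Counted from the start at −46, the annotated start of PIK3IP1-DT lies downstream, as in a convergent pair. The study places the start of PIK3IP1-DT downstream of that of PIK3IP1, outside the annotation, and treats the promoters as convergent. The arrangement counted from the MANE Select start is therefore not the one the study describes. The study also reports RFX7 bound at the PIK3IP1-DT promoter, past the PIK3IP1 start. In U2OS cells, a line not used here, siRNA against RFX7 removed the Nutlin-3a increase of both transcripts. PIK3IP1-DT had a base mean of 11.4 and 18.3 per kilobase, and PIK3IP1 stood at 12.6 times its level per kilobase. RFX5-AS1 started 314 bases downstream of RFX5 on the opposite strand and had a base mean of 9.03. RFX5 stood at 38.8 times the level of RFX5-AS1 per kilobase. PDCD4-AS1 started 325 bases downstream of PDCD4 and had the highest level of the noncoding partners, 60.7 per kilobase, with PDCD4 at 7.35 times that level. PNRC1-DT, 84 bases upstream of PNRC1, had a base mean of 5.77 and 11.5 per kilobase, and PNRC1 stood at 98.7 times its level. The base means of PIK3IP1-DT, RFX5-AS1 and PNRC1-DT were low, beside a smallest listed value of 2.91, so these ratios rest on few counts. The level of PIK3IP1-DT also rests on its annotated exon length, although the study places its start outside the annotation.

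Of the partners, 2 were protein-coding. DSE, which encodes the dermatan sulfate epimerase, has many annotated starts around TSPYL1, the nearest 141 bases upstream and another 787 bases downstream, within the TSPYL1 exon. DSE had 102.6 per kilobase, and TSPYL1 stood at 7.95 times that level. TEX9 started 92 bases upstream of RFX7, between the MANE Select start and the alternative start of RFX7. It had 20.6 per kilobase, and RFX7 stood at 8.35 times that level. Libraries were made with a directional kit and counted with their strandness, so that partners on opposite strands were counted apart.

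**Figure D3:**
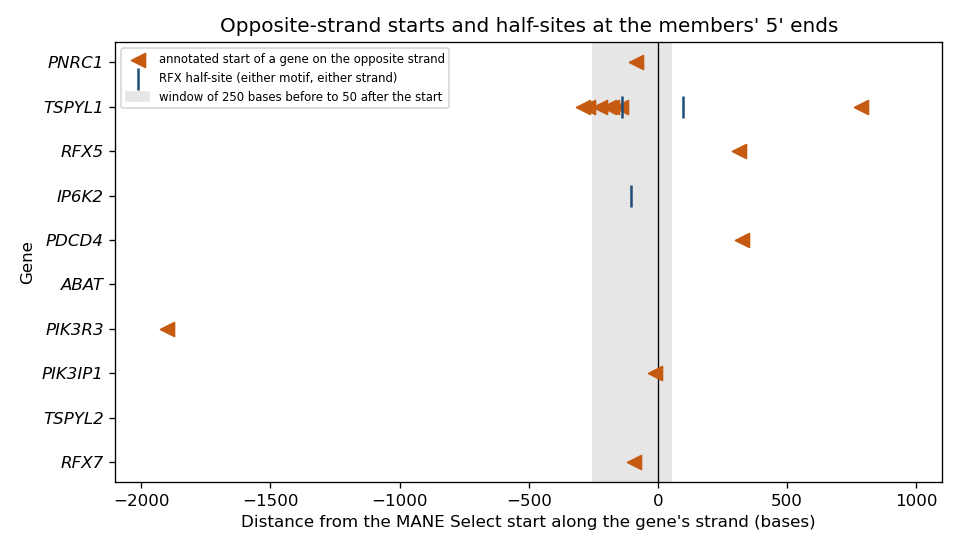
Positions at the members' 5′ ends (y axis, members) along the gene's strand, in bases from the MANE Select start (x axis). Triangles mark annotated starts of genes on the opposite strand, bars mark recognition sites, and the grey band is the window from 250 bases before to 50 after the start. Sites appear at TSPYL1 and IP6K2 only, and starts downstream of the member's own start appear at RFX5, PDCD4 and TSPYL1.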

How the data were processed

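RNA-seq of RPE-1 and HCT116 cells treated with Nutlin-3a or DMSO was deposited as 1 table per cell line. As the study's methods describe, adaptors and low-quality bases were removed and the authors mapped reads with segemehl to hg38 with the Ensembl annotation, counted uniquely mapped reads on exons with featureCounts, set to the library's strandness, and compared treatments with DESeq2. Both labels and methods name a directional kit, but the labels describe depletion of ribosomal RNA and the methods poly(A) selection. The submitters' processing notes name featureCounts 2.0.1 and DESeq2 1.32.0. Base means, the deposited signal values, average the normalized counts. The deposited fold changes, standard errors, test statistics, p-values and adjusted p-values (5 columns per table) are the authors' own comparison and were not used. The depth of each library is unknown and values per library are missing from the tables, so the tests planned for values per library were not run.

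Members and lists were chosen with earlier results of these data known. Exon lengths and starts came from GENCODE 44 (GRCh38), in which 25836 of 25914 listed genes were matched by identifier, whereas the authors used an earlier annotation of the same build. Promoter windows came from RefSeq (GRCh38.p14), and the 54 windows of the genes examined were identical in hg38. Percentiles give the share of listed genes at or below a level, with ties split evenly. Percentile and motif code was tested on simulated data. Genes named were the members, their relatives and RFX family, other genes described as RFX7 targets, MDM2 and CDKN1A, opposite-strand neighbours within 2500 bases, and the 3 genes nearest to RFX7 in level, and 1 further gene of these lists is not reported here. Alternatives were another length, other gene sets, shorter or mismatched motifs and, chosen after seeing the data, a wider window and the facing cores. Python 3.11.15 and matplotlib 3.10.9 were used.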

Additional observations from a re-analysis of the deposited data

How the results depend on the processing

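The members' median level per kilobase of exon was 7.21 times that of all listed genes, 8.19 times with the longest transcript and 14.9 times without division by length. Their median percentile was 83.1 among all listed genes, 77.1 among protein-coding genes and 78.9 among genes with a base mean of at least 10. Recognition sites were found in windows of 2 members, in 8 with the core GTTGC and in 9 with up to 1 mismatch, where 38.4% and 70.8% of all genes also held a match, and in 2 with the wider window, which was chosen after seeing the data. In the wider window the core was held by 8 members, beside 92.3% of genes. The looser motifs match more often by their construction. No paired analysis was possible because values per library are missing from both tables. The planned treatment comparisons, and with them DESeq2, the fit without a filter and the fits without each replicate, were therefore not run.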
